A study of Mus musculus with 10 samples.

Results

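The 10 genes described here build and mark the precursor B cell: the surrogate light chain genes Vpreb1, Vpreb2 and Igll1 with the related Vpreb3, the receptor's signalling chains Cd79a and Cd79b, the recombination genes Rag1, Rag2 and Dntt, and the identity factor Pax5. They were taken by name, each by the probeset that carries its symbol alone, as 10 of the 19938 genes with a probeset of their own. RNA came from irradiated wild-type mouse embryonic fibroblasts (MEFs) on day 9 of culture, so the signals of these genes were read as the level of precursor B cell RNA on each fibroblast array. The 4 groups were MEFs + ALL + nilotinib (3 arrays), MEFs + ALL + DMSO (1 array), MEFs + nilotinib (3 arrays) and MEFs + DMSO (3 arrays). ALL stands for 8093 cells, murine precursor B acute lymphoblastic leukaemia cells from a Bcr/Abl transgenic mouse, which grew above the MEFs behind a Transwell membrane whose pores cells should not cross. Nilotinib, an inhibitor of the Bcr/Abl kinase, was given at 16 nM, DMSO is its solvent, and the medium of every dish held murine IL-3. The 8093 cells are 1 line, and no array of these cells by themselves was used here. The labels state that the MEFs were inspected for leukaemia cells before RNA was isolated. The methods add that further dishes of the MEFs + ALL + DMSO group were contaminated by leukaemia cells and were left out, so that this group has no replicate.

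In bone marrow, a precursor B cell cuts and joins its heavy chain gene segments with the RAG recombinase, while terminal transferase adds bases at the joints. A finished heavy chain is then paired with the surrogate light chain, made of a VpreB protein and the Igll1 protein, and is held at the surface by the Cd79a and Cd79b chains as the pre-B receptor. The receptor signals, the surrogate light chain genes are later shut off, and the light chain genes are recombined. These genes are used by lymphocytes and their precursors and are not known as fibroblast genes. In bulk RNA, a change in the number of cells of a type and a change in RNA per cell cannot be told apart.

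Promoter sequences from RefSeq (GRCm38.p6) were found for 9 of the 10 genes. The 250 bases before the start of 4 of them are shown, among them Vpreb1 and Vpreb2, close copies with unequal differences. The 4 are examples, and other genes that moved with them in the arrays, such as Pax5 and Vpreb3, are not shown. Capitals mark CAGGTG or its reverse complement CACCTG, the E-box letters bound by E2A, a factor of early B cells.
Igll1 promoter, chr16:16863986-16864235, minus strand: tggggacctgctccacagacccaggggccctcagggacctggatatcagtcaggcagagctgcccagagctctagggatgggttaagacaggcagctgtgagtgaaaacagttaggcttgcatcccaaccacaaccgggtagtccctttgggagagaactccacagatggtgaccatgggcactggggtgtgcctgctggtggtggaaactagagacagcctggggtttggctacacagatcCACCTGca
Vpreb1 promoter, chr16:16869256-16869505, minus strand: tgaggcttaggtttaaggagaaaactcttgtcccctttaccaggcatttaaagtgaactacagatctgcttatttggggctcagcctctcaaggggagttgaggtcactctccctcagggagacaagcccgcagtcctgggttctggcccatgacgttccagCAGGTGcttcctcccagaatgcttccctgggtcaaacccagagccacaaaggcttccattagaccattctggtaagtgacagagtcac
Vpreb2 promoter, chr16:17980315-17980564, plus strand: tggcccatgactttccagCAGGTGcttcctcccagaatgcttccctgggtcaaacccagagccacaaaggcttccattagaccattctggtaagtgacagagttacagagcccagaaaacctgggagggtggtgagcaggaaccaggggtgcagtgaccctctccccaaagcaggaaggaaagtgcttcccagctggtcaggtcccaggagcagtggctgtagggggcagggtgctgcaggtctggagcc
Cd79a promoter, chr7:24897247-24897496, plus strand: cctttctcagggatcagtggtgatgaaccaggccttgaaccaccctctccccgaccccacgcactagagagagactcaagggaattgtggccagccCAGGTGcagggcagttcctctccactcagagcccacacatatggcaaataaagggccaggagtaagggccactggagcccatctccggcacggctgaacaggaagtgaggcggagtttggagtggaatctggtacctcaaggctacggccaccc
These letters, searched on both strands, were present in the windows of 5 of the 9 genes (the 4 shown and Rag1), and in 17.2% of the 32851 windows of the table. The windows of Vpreb3, Rag2, Dntt and Pax5 did not hold them. The letters CCCNNGGG, a core bound by EBF1, overlapped no E-box and were found in the Igll1 window alone among the 9, against 11.8% of all windows. TGGGAA, bound by Ikaros, was found in the windows of Vpreb2 and Rag1, against 21.6% of all windows. Vpreb1, Vpreb2 and Igll1 all lie on chromosome 16, where Igll1 and Vpreb1 are neighbours. At an offset of 144 bases the Vpreb1 and Vpreb2 windows had 104 of 106 bases in common (98.1%). The E-boxes of both windows lie at the same place in this shared stretch. The count of 5 genes thus holds a copied site for each of Vpreb1 and Vpreb2, not separate finds. The transcripts of Vpreb1 and Vpreb2 are near-identical too, so the signals of their probesets may each hold signal of the other gene.

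The array of MEFs + ALL + DMSO stood apart from the other 9 for 9 of these genes, and the MEFs + ALL + nilotinib arrays did not stand apart from the 6 arrays of MEFs without ALL cells for any. The mean log2 signal of the 10 genes was 5.78, 6.05 and 5.84 on the MEFs + ALL + nilotinib arrays, 8.11 on the MEFs + ALL + DMSO array, 5.91, 5.78 and 6.03 on the MEFs + nilotinib arrays and 5.94, 5.89 and 6.06 on the MEFs + DMSO arrays. The array of MEFs + ALL + DMSO lay above all 9 others for 9 of the 10 genes, against 15.7% of all 35557 probesets, and by more than 1 on the log2 scale for 8 of them, against 1.59%. Arrays as a whole were alike, with medians between 6.94 and 7.01 and pairwise correlations between 0.975 and 0.995. The array of MEFs + ALL + DMSO also stood apart on the first principal component (30.8% of the variance), and MEFs + ALL + nilotinib replicate 2 on the second (18.9%).

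**Figure D1:**
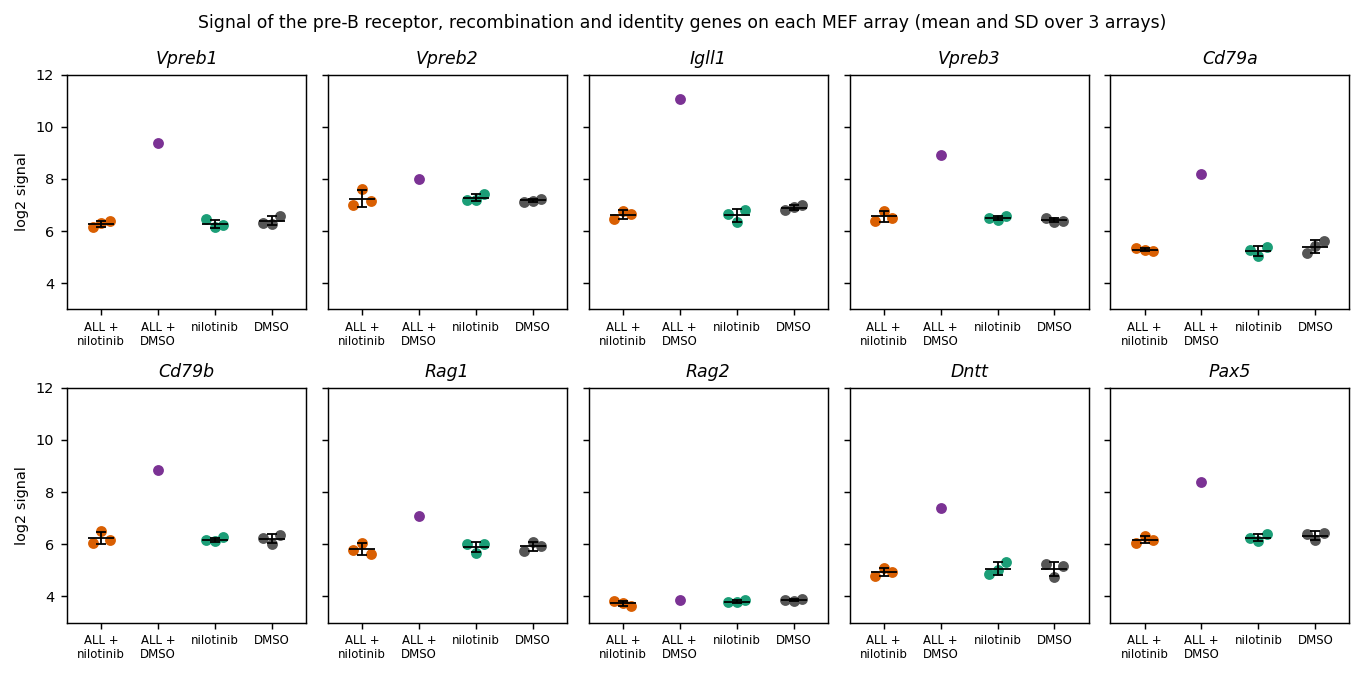
Log2 signal (y axis) of each of the 10 genes on each array, with the 4 groups along the x axis, where ALL + nilotinib and ALL + DMSO stand for MEFs with ALL cells and nilotinib and DMSO for MEFs without them. Points are single arrays, and black lines are the mean and SD of 3 arrays. The lone MEFs + ALL + DMSO point is highest for every gene but Rag2.

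The surrogate light chain gene Igll1 had the largest difference of the 10. Its log2 signal was 6.45, 6.77 and 6.64 in MEFs + ALL + nilotinib, 11.08 in MEFs + ALL + DMSO, 6.64, 6.33 and 6.81 in MEFs + nilotinib and 6.81, 6.91 and 6.99 in MEFs + DMSO. The highest of the 9 other arrays was thus 4.09 below the MEFs + ALL + DMSO array, while the 9 spanned 0.65. Igll1 was 18.1-fold higher in MEFs + ALL + DMSO than in MEFs + DMSO (log2 difference 4.18 ± 0.19, SE; 95% interval of the fold 13.5 to 24.3; adjusted p = 3.86e-06).

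Vpreb1, whose product joins that of Igll1 in the surrogate light chain, had log2 signals of 6.16, 6.32 and 6.38 in MEFs + ALL + nilotinib, 9.39 in MEFs + ALL + DMSO, 6.45, 6.16 and 6.24 in MEFs + nilotinib and 6.33, 6.27 and 6.59 in MEFs + DMSO. It was 7.95-fold higher in MEFs + ALL + DMSO than in MEFs + DMSO (adjusted p = 9.50e-06). Its close copy Vpreb2 moved much less. Vpreb2 read 6.99, 7.61 and 7.13 in MEFs + ALL + nilotinib, 7.99 in MEFs + ALL + DMSO, 7.20, 7.19 and 7.43 in MEFs + nilotinib and 7.12, 7.17 and 7.23 in MEFs + DMSO. The MEFs + ALL + DMSO array was the highest for Vpreb2 as well, but by 0.38 over MEFs + ALL + nilotinib replicate 2. The difference of Vpreb2 between MEFs + ALL + DMSO and MEFs + DMSO was 1.76-fold and just past the threshold (adjusted p = 0.0461), and it missed the threshold when any 1 of the 3 MEFs + DMSO arrays was left out (adjusted p between 0.0881 and 0.0977), when any 1 MEFs + nilotinib array or MEFs + ALL + nilotinib replicate 3 was left out (0.0579 to 0.0648), and with quantile normalization (0.0680). The difference between the changes of Vpreb1 and Vpreb2 was not tested.

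Vpreb3, a VpreB-related protein that is retained inside the cell, had log2 signals of 6.40, 6.78 and 6.49 in MEFs + ALL + nilotinib, 8.90 in MEFs + ALL + DMSO, 6.49, 6.41 and 6.56 in MEFs + nilotinib and 6.51, 6.34 and 6.39 in MEFs + DMSO. It was 5.60-fold higher in MEFs + ALL + DMSO than in MEFs + DMSO (adjusted p = 1.56e-05). As for Vpreb1 and Igll1, the 3 groups with replicates lay within 1 band, here 0.44 wide.

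The signalling chains, which carry the motifs that kinases phosphorylate when the receptor fires, were both higher in MEFs + ALL + DMSO. Cd79a read 5.34, 5.28 and 5.23 in MEFs + ALL + nilotinib, 8.19 in MEFs + ALL + DMSO, 5.29, 5.03 and 5.38 in MEFs + nilotinib and 5.15, 5.42 and 5.63 in MEFs + DMSO. Cd79b read 6.06, 6.52 and 6.15 in MEFs + ALL + nilotinib, 8.86 in MEFs + ALL + DMSO, 6.15, 6.11 and 6.26 in MEFs + nilotinib and 6.23, 6.02 and 6.36 in MEFs + DMSO. Both were far above the band of the other 9 arrays in MEFs + ALL + DMSO. Relative to MEFs + DMSO, the increase in MEFs + ALL + DMSO was 6.94-fold for Cd79a (log2 difference 2.80 ± 0.19, SE; adjusted p = 3.46e-05) and 6.32-fold for Cd79b (2.66 ± 0.19, SE; adjusted p = 5.14e-05).

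The recombination genes did not behave as 1 block. Dntt, which encodes terminal transferase, read 4.77, 5.10 and 4.94 in MEFs + ALL + nilotinib, 7.39 in MEFs + ALL + DMSO, 4.86, 5.00 and 5.34 in MEFs + nilotinib and 5.24, 4.73 and 5.16 in MEFs + DMSO. It was 5.08-fold higher in MEFs + ALL + DMSO than in MEFs + DMSO (adjusted p = 0.000421). Rag1, the catalytic subunit of the recombinase, read 5.78, 6.06 and 5.63 in MEFs + ALL + nilotinib, 7.10 in MEFs + ALL + DMSO, 6.03, 5.68 and 6.02 in MEFs + nilotinib and 5.73, 6.08 and 5.94 in MEFs + DMSO. Its increase was smaller, 2.27-fold (95% interval 1.64 to 3.14, adjusted p = 0.00931), and placed the MEFs + ALL + DMSO array 1.02 above the highest other array.

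Rag2, the partner of Rag1 and its neighbour on chromosome 2, was the 1 gene of the 10 with no call. Its log2 signal was 3.83, 3.77 and 3.63 in MEFs + ALL + nilotinib, 3.86 in MEFs + ALL + DMSO, 3.77, 3.78 and 3.87 in MEFs + nilotinib and 3.88, 3.81 and 3.89 in MEFs + DMSO. The MEFs + ALL + DMSO array lay inside the range of the MEFs + DMSO arrays, and the interval of their log2 difference ran from -0.23 to 0.22 (adjusted p = 0.995). The Rag2 probeset was dim on every array. As a gauge, the probesets of 1194 olfactory and vomeronasal receptor genes, which fibroblasts and lymphocytes are not expected to use, had a median log2 signal between 4.39 and 4.66 over the arrays, and Rag2 was below that median on all 10. Whether this probeset can report Rag2 RNA at all was not tested.

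Pax5, the factor that commits a cell to the B lineage, read 6.03, 6.33 and 6.18 in MEFs + ALL + nilotinib, 8.38 in MEFs + ALL + DMSO, 6.24, 6.14 and 6.40 in MEFs + nilotinib and 6.40, 6.15 and 6.45 in MEFs + DMSO. It was 4.15-fold higher in MEFs + ALL + DMSO than in MEFs + DMSO (adjusted p = 9.10e-05).

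In all, 9 of the 10 genes were higher in MEFs + ALL + DMSO than in MEFs + DMSO by limma, against 6.67% of all probesets called higher. Their median log2 difference, over all 10, was 2.41, against -0.07 over all probesets. The lone array was assumed in this test to vary as the replicated groups do, and its own spread is unknown. Above the 95th percentile of the receptor gauge lay 2 to 4 of the 10 genes on each of the 9 other arrays (Igll1 and Vpreb2 always among them), and 9 on the MEFs + ALL + DMSO array. A signal below that percentile can be background of the array. The fold changes of genes that lay below it on other arrays and above it on the MEFs + ALL + DMSO array may therefore be understated.

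**Figure D2:**
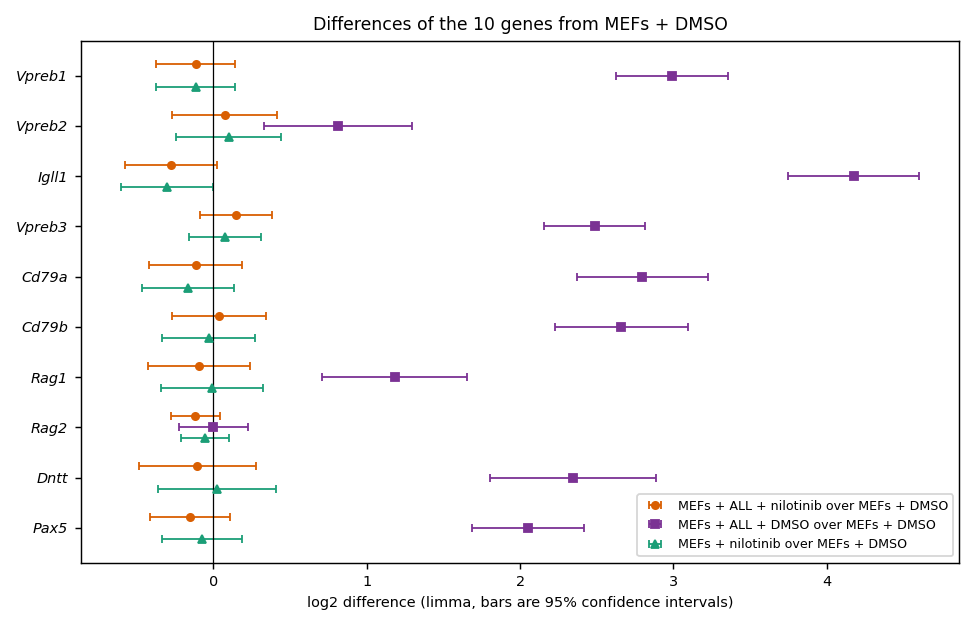
Log2 differences (x axis) of the 10 genes (y axis) from MEFs + DMSO, for MEFs + ALL + nilotinib (circles), MEFs + ALL + DMSO (squares) and MEFs + nilotinib (triangles), with 95% confidence intervals from limma as bars. The squares reach 4.18 for Igll1, and the circles stay between -0.28 and 0.14.

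In the presence of nilotinib, none of the 10 genes passed the test between MEFs + ALL + nilotinib and MEFs + DMSO by limma (0 of 10, with 0 at an unadjusted p under 0.05; 0.627% of all probesets were called, and 16.2% lay under the unadjusted threshold). The log2 differences ran from -0.28 for Igll1 to 0.14 for Vpreb3, and the highest upper bound of their 95% intervals was 0.41, for Vpreb2. The arrays of the groups overlapped for every gene but Igll1, which was lower on all 3 MEFs + ALL + nilotinib arrays than on the MEFs + DMSO arrays (log2 difference -0.28, interval -0.58 to 0.02, adjusted p = 0.346). Of all probesets, 24.7% did not overlap between these groups.

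Against MEFs + nilotinib, the comparison in which only the ALL cells differ, MEFs + ALL + nilotinib had 0 of the 10 genes called by limma and 0 at an unadjusted p under 0.05 (0.186% of all probesets were called, and 9.27% lay under the unadjusted threshold). The log2 differences lay between -0.13 (Dntt) and 0.07 (Vpreb3), with no interval reaching above 0.37. Nilotinib without ALL cells gave 0 calls among the 10 as well, over MEFs + DMSO, with 0.00% of all probesets called. The 1 gene at an unadjusted p under 0.05 was Igll1 (log2 difference -0.30, adjusted p = 0.444), against 11.2% of all probesets.

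Set directly against MEFs + ALL + DMSO, the MEFs + ALL + nilotinib arrays were lower for 8 of the 10 genes, against 3.76% of all probesets called lower. This comparison and that of MEFs + ALL + DMSO over MEFs + DMSO share the lone array. The log2 difference was -4.45 for Igll1, -3.11 for Vpreb1, -2.91 for Cd79a, -2.62 for Cd79b, -2.45 for Dntt, -2.34 for Vpreb3, -2.21 for Pax5 and -1.28 for Rag1, with adjusted p between 3.15e-06 for Igll1 and 0.00841 for Rag1. The Rag1 call was lost when only these 2 groups were fitted (adjusted p = 0.103). Vpreb2 had a log2 difference of -0.74 (adjusted p = 0.111), and it passed the test in 3 of 16 alternatives. Among them was the fit without MEFs + ALL + nilotinib replicate 2, the array on which Vpreb2 was high (-0.92). A larger difference follows from leaving out that array, so this pass is no separate support. For Rag2 the log2 difference was -0.12 (adjusted p = 0.574).

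The difference made by ALL cells under nilotinib was then compared with that under DMSO in 1 test, the interaction of ALL cells and nilotinib. It was lower under nilotinib for 8 of the 10 genes, against 3.55% of all probesets called lower. The interaction was largest for Igll1 (log2 -4.15 ± 0.23, SE; adjusted p = 2.46e-05) and smallest among the 8 for Rag1 (-1.27 ± 0.25, SE; adjusted p = 0.0286). The Rag1 call was lost without any 1 of 5 arrays, which were MEFs + ALL + nilotinib replicates 1 and 3, MEFs + nilotinib replicate 3 and MEFs + DMSO replicates 1 and 3 (adjusted p between 0.0580 and 0.0696). Vpreb2 (-0.84, adjusted p = 0.130) and Rag2 (-0.06, adjusted p = 0.804) did not pass.

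How much of the MEFs + ALL + DMSO signal the other arrays could hold was read on the anti-logged scale. For each gene the mean of MEFs + DMSO was subtracted, and the remainder was given as a percentage of that of the MEFs + ALL + DMSO array. For Igll1 the remainder was -1.58%, -0.50% and -0.96% on the MEFs + ALL + nilotinib arrays, and its mean was -1.08% on the MEFs + nilotinib arrays. All 3 MEFs + ALL + nilotinib arrays lay below the MEFs + DMSO mean for Igll1, and their values lay on both sides of the mean of MEFs + nilotinib. Over the 8 genes without Vpreb2 and Rag2 the remainder lay between -14.8% and 7.79% in MEFs + ALL + nilotinib, -12.4% and 5.80% in MEFs + nilotinib and -9.98% and 9.19% in MEFs + DMSO, with Rag1, whose difference was the smallest of the 8, at both ends in each group. These ranges were of the same order with and without ALL cells, but they are ranges of Rag1 and do not describe each gene. The highest remainder of Vpreb3 was 6.2% in MEFs + ALL + nilotinib, 2.30% in MEFs + nilotinib and 1.42% in MEFs + DMSO. For Cd79b it was 4.5%, 0.68% and 2.12%. For Igll1, Vpreb1, Cd79a, Rag1, Dntt and Pax5 the highest remainder of these 3 groups was on an array without ALL cells. Vpreb2, whose difference was smaller still, spread more widely, at -15.5%, 46.8% and -3.75% on the MEFs + ALL + nilotinib arrays, 2.40%, 1.93% and 25.4% on the MEFs + nilotinib arrays and -5.07%, -0.35% and 5.43% on the MEFs + DMSO arrays. It was thus high on 1 array with ALL cells and, to a lesser extent, on 1 array without them. On MEFs + ALL + nilotinib replicate 2 its near copy Vpreb1 was below the MEFs + DMSO mean (-0.86%), as were Igll1 (-0.50%), Cd79a (-1.5%) and Pax5 (-0.24%). On the same array Rag1 (7.79%), Vpreb3 (6.2%), Cd79b (4.5%) and Dntt (0.79%) were above it.

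**Figure D3:**
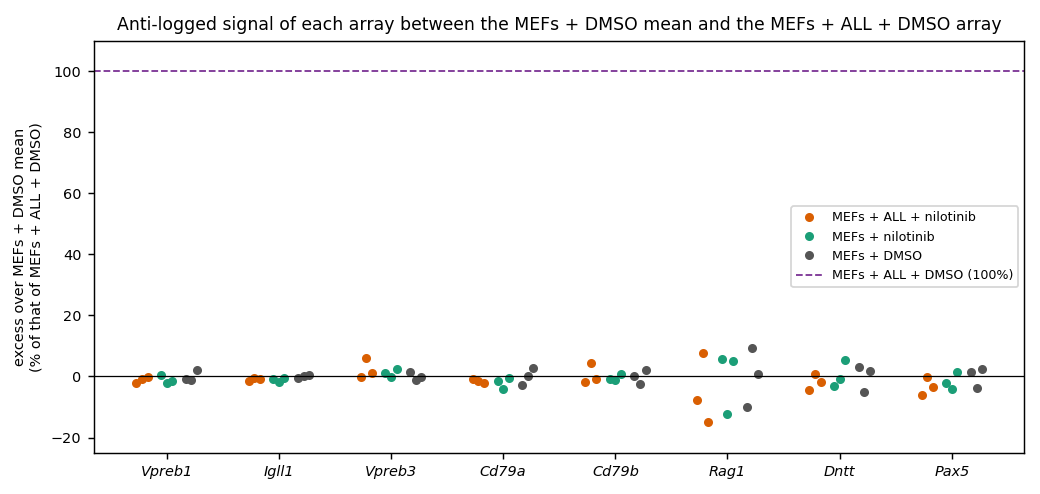
Anti-logged signal above the MEFs + DMSO mean, as a percentage of that of the MEFs + ALL + DMSO array (y axis, dashed line at 100%), for 8 genes (x axis) on each MEFs + ALL + nilotinib, MEFs + nilotinib and MEFs + DMSO array (points). All points lie between -14.8% and 9.19%.

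Genes that act around the pre-B receptor were examined as lists. Of 17 measured genes of pre-B receptor signalling, 12 were higher in MEFs + ALL + DMSO than in MEFs + DMSO and 0 were lower, with a median log2 difference of 1.22, against 6.67% called higher and a median of -0.07 over all probesets. The B lymphoid kinase gene Blk read between 5.73 and 6.15 in MEFs + ALL + nilotinib, 9.73 in MEFs + ALL + DMSO, between 5.78 and 6.16 in MEFs + nilotinib and between 6.08 and 6.19 in MEFs + DMSO, so that its log2 difference was 3.61 (adjusted p = 7.84e-06). The exchange factor gene Vav1 (2.36) and the protein kinase C gene Prkcb (2.08) followed. The heavy chain gene Ighm and the adaptor gene Blnk, singled out after their values were seen because they belong to the receptor itself and to its first relay, were not called (log2 differences of -0.31 and 0.02).

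Of 19 B-lineage transcription factor genes, 14 were higher and 0 lower, with a median of 1.18. Myb, which keeps progenitors proliferating, read at most 6.11 in MEFs + ALL + nilotinib, 10.49 in MEFs + ALL + DMSO, between 5.91 and 6.04 in MEFs + nilotinib and between 5.98 and 6.42 in MEFs + DMSO (log2 difference 4.25, adjusted p = 1.70e-06). The coactivator gene Pou2af1 (2.73) and the Ikaros gene Ikzf1 (2.45) came next. Among 13 surface and growth receptor genes of precursor B cells, 7 were higher and 0 lower, led by Cd93 (3.55), Bst1 (2.91) and the interleukin-7 receptor gene Il7r (2.62).

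The joining machinery of recombination is used by every cell to repair double-strand breaks. Of 11 measured genes of this machinery and its cofactors, 2 were higher and 0 lower, with a median of 0.24. The 2 were Hmgb2 (3.31), a DNA-bending cofactor that dividing cells of many types express, and Xrcc6 (0.95), a subunit of the Ku end-binding complex. Of 10 genes of mature B cells, 2 were higher and 0 lower, with a median of -0.01. The 2 were Cd74 (2.86), the invariant chain gene, and H2-Ab1 (2.07), a class II chain gene. H2-Ab1 read 6.18 to 6.86 in MEFs + ALL + nilotinib, 8.03 in MEFs + ALL + DMSO, 5.97 to 6.16 in MEFs + nilotinib and 5.84 to 6.05 in MEFs + DMSO. Its log2 difference in MEFs + ALL + nilotinib over MEFs + DMSO was 0.55 and was not called by limma (adjusted p = 0.155). H2-Aa, which encodes the partner chain of H2-Ab1, was not called in MEFs + ALL + DMSO over MEFs + DMSO (0.14, adjusted p = 0.513). It was singled out after the values were seen. Ms4a1, the gene of CD20, was also singled out after the values were seen, and read 4.52 on the MEFs + ALL + DMSO array and between 4.35 and 4.86 on all arrays.

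Markers of other cell types were examined for the same array. Of 20 pan-leukocyte genes, 18 were higher in MEFs + ALL + DMSO than in MEFs + DMSO and 0 lower, with a median log2 difference of 1.58 (Coro1a 3.30, Rac2 2.91 and Ptprc, the gene of CD45, 2.81). Of 15 macrophage genes 1 was higher, Fcer1g by 0.41, of 11 T cell genes 1 was lower, Cd3e (-0.64), and 0 of 12 granulocyte genes passed (3 at an unadjusted p under 0.05, by limma). Over all 35557 probesets, 6.67% were called higher in this comparison, near the share of the macrophage list, and 1278 were called lower. The share of all probesets at an unadjusted p under 0.05 is not given here, so the 3 granulocyte genes are not set against it. The summed anti-logged signal of the macrophage list lay between 8627 and 9498 in MEFs + ALL + nilotinib, at 8400 in MEFs + ALL + DMSO, between 7928 and 9442 in MEFs + nilotinib and between 7980 and 8951 in MEFs + DMSO. The groups overlapped in this sum. Of the 15 macrophage genes, 13 lay above the array's median on all 10 arrays and 1 below it on all 10, while 0 of the 11 T cell and 0 of the 12 granulocyte genes lay above it on all 10.

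Of 18 fibroblast genes, 17 lay above the array's median on all 10 arrays. The exception was Fap (log2 signal between 6.40 and 7.16), and Fn1 is an example of the 17 (between 13.33 and 13.60). The summed signal of the 18 genes was 70437 to 72823 in MEFs + ALL + nilotinib, 62890 in MEFs + ALL + DMSO, 67292 to 74332 in MEFs + nilotinib and 73793 to 75170 in MEFs + DMSO. The MEFs + ALL + DMSO array was the lowest of the 10 for this sum and the highest for the sum of the pre-B receptor and recombination genes. Its low rank depends on the summary, because the brightest genes weigh most in a sum. By the mean log2 signal of the 18 genes this array (10.9402) lay above MEFs + DMSO replicate 3 (10.9375). Of the 18, 3 were higher in MEFs + ALL + DMSO than in MEFs + DMSO (S100a4 by 1.07, Lum by 0.65 and Thy1 by 0.59 on the log2 scale) and Col1a2 was lower (-0.66). Whether leukaemia cells, leukaemia cell RNA or the fibroblasts themselves gave the signal of the 10 genes on this array was not tested.

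In MEFs + ALL + nilotinib over MEFs + DMSO, 0 genes were called by limma in the lists of pre-B receptor signalling, B-lineage transcription factors, repair and cofactors, precursor B receptors, mature B, macrophage, T and granulocyte genes. In that order, 2 of 17, 5 of 19, 3 of 11, 3 of 13, 2 of 10, 2 of 15, 0 of 11 and 0 of 12 had an unadjusted p under 0.05, against 16.2% of all probesets. Of the pan-leukocyte genes 1 of 20 was higher, and of the fibroblast genes 2 of 18, against 0.627% of all probesets called in either direction. The 2 fibroblast genes were S100a4 (log2 difference 0.93, adjusted p = 0.0109) and Thy1 (0.60, adjusted p = 0.0416), by limma. An unadjusted p under 0.05 was found for 3 of 20 pan-leukocyte and 8 of 18 fibroblast genes, against the same 16.2%.

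**Figure D4:**
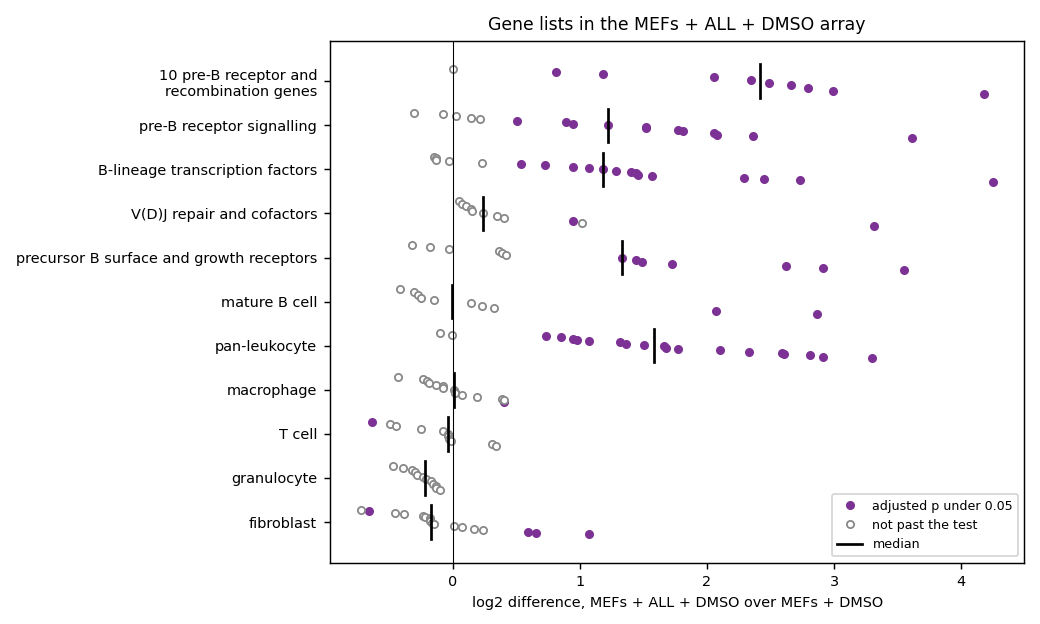
Log2 differences of MEFs + ALL + DMSO over MEFs + DMSO (x axis) for every measured gene of each list (y axis). Filled points passed the limma test, open points did not, and black bars are list medians, which reach 2.41 for the 10 pre-B receptor and recombination genes and lie at 0.01 for macrophage and -0.17 for fibroblast genes.

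Across the 10 arrays, the genes whose profile was most like the mean profile of the 10 genes were Gimap4 (r = 0.998), Arpp21 (r = 0.997), Blk, Cecr2, Myl10 and Epcam (r = 0.996 each) and Gbp4 and Parvg (r = 0.995 each), out of 987 other genes with a range of at least 1 on the log2 scale. All these profiles share the high MEFs + ALL + DMSO array. Over the 9 arrays without MEFs + ALL + DMSO, r lay between 0.723 for Parvg and 0.913 for Gimap4. Of the 10 genes, Pax5 (r = 0.995), Cd79b and Igll1 (r = 0.994 each) were most like the mean of the other 9, while Vpreb2 (r = 0.855) and Rag2 (r = 0.278) were least like it. These values too rest largely on the MEFs + ALL + DMSO array. Over the 9 arrays without it, r lay between 0.354 for Rag2 and 0.859 for Pax5, with 0.436 for Vpreb3, 0.448 for Cd79a, 0.719 for Igll1 and 0.781 for Cd79b. These correlations are given as descriptions, with no test.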

How the data were processed

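RNA of irradiated MEFs was hybridised to 10 Affymetrix Mouse Gene 1.0 ST arrays, 1 per dish. The authors deposited the log2 of RMA-normalized probeset signals made with Partek. The methods name Partek beside Ingenuity and give a version that is not tied to Partek, and further settings were not found in the sources used here. The table holds 35557 probesets with 0 missing values. Precision is limited by the number of arrays. The array's annotation gives 21789 probesets a single symbol, 1621 more than one and 12147 no symbol. A gene was named only from the first kind, by the probeset with the highest mean. Each of the 10 genes has 1 probeset.

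The log2 values of all 10 arrays were fitted with 4 group means in limma 3.58.1 (lmFit, eBayes; R 4.3.3). P-values are two-sided, were adjusted by Benjamini-Hochberg over all 35557 probesets and called under 0.05. The fit was tested on simulated data. For MEFs + ALL + DMSO over MEFs + DMSO, over 35557 probesets, it recovered 58.0% of 100 simulated log2 changes of 1 and 91.0% of 100 of 2. The simulation gave the lone array the spread of the replicated groups, with independent noise for each probeset. These rates therefore do not cover a lone array that varies more or deviates as a whole. The genes and lists were chosen with earlier results of these data known. The genes named were all 10, of each list those called in MEFs + ALL + DMSO over MEFs + DMSO with the 3 largest changes in each direction, and the 8 other genes most like the mean profile of the 10. Ighm, Blnk, Ms4a1, H2-Aa, Fap and Fn1 were named outside this rule, after their values were seen. The value of the 1 pan-leukocyte gene called in MEFs + ALL + nilotinib over MEFs + DMSO is left out. Triplicates are separate dishes of 1 experiment, so p-values measure the spread between dishes. Replicate numbers were checked and do not pair the arrays.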

Additional observations from a re-analysis of the deposited data

Results flagged for a closer look

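The difference made by ALL cells under nilotinib minus that under DMSO passed the limma interaction test for 8 of the 10 genes, which singled them out. The log2 values were -2.99 for Vpreb1, -2.41 for Vpreb3, -4.15 for Igll1, -2.74 for Cd79a, -2.59 for Cd79b, -1.27 for Rag1, -2.47 for Dntt and -2.13 for Pax5. Each rests on the lone MEFs + ALL + DMSO array, whose spread could not be measured. No formal test for single outlying values was run within the groups of 3 arrays.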

How the results depend on the processing

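For MEFs + ALL + DMSO over MEFs + DMSO, 16 alternatives left 8 of the 10 genes called wherever they were fitted, and Rag2 in none. Leaving out the dimmest probesets (a fraction of 0.25) removed Dntt and Rag2. Vpreb2 passed in 8 of the 16 (adjusted p between 0.00524 and 0.0977), and was lost with quantile normalization (0.0680) and without any 1 MEFs + DMSO array, any 1 MEFs + nilotinib array or MEFs + ALL + nilotinib replicate 3. For MEFs + ALL + nilotinib over MEFs + ALL + DMSO, Vpreb2 passed with array weights (0.00975) and with single-symbol probesets alone (0.0436), and Rag1 was lost with only the compared groups in the fit (0.103). In the interaction, Vpreb2 passed with array weights (0.0154) and without MEFs + ALL + nilotinib replicate 2 (0.00913). No called direction turned, and 0 of the 10 genes were called in MEFs + ALL + nilotinib over MEFs + DMSO, over MEFs + nilotinib or in MEFs + nilotinib over MEFs + DMSO under 18 alternatives each. No other probeset of these genes could be tried.

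Counts over all probesets moved more. MEFs + ALL + DMSO over MEFs + DMSO had 3651 calls, 6615 with array weights and 2137 to 4968 without single arrays (2137 without MEFs + DMSO replicate 2, 2190 without replicate 3). MEFs + ALL + nilotinib over MEFs + ALL + DMSO had 1543 calls, 535 with only the compared groups in the fit and 1178 to 1540 without single arrays. The interaction had 1406 calls, 2323 with array weights and 1008 to 1932 without single arrays. MEFs + ALL + nilotinib over MEFs + DMSO had 223 calls, 476 with trend and robust fitting, 1263 with array weights, 12 with only the compared groups, 421 without the dimmest probesets, 646 among single-symbol probesets and 8 to 233 without single arrays. MEFs + ALL + nilotinib over MEFs + nilotinib had 66 calls, and in the same order 117, 141, 4, 115, 161 and 12 to 66. MEFs + nilotinib over MEFs + DMSO had 0 calls, and 0 to 57 without single arrays (57 without MEFs + nilotinib replicate 1). The cause of these shifts was not tested. Same-numbered arrays correlated between -0.293 and 0.241 in their deviations from the group means, so the numbers do not pair them. With the replicate block the calls were 8 for MEFs + ALL + nilotinib over MEFs + DMSO, 12 over MEFs + nilotinib and 0 for MEFs + nilotinib over MEFs + DMSO, with 0 of the 10 genes in each. The lone MEFs + ALL + DMSO array was not in the blocked fit, since the labels give it no number.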
